A study of Rattus norvegicus with 8 samples.

Results

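The genes described are 7 CC chemokines (Ccl2, Ccl7, Ccl6, Ccl20, Ccl5, Ccl3 and Ccl4) in rat cerebral cortex 24 h after a stroke. They were chosen by name: every array probe whose gene symbol is one of the 7 was taken, which gave 9 probes, 3 for Ccl2 and 1 for each of the other 6 genes. They are 7 of the 10882 named genes that had a value on all arrays. The animals were Sprague Dawley rats. In 4 rats the middle cerebral artery was closed transiently (tMCAO, a model of ischaemic stroke with reperfusion), and 4 control rats had a sham operation. The cortex of the same side was taken 24 h later from a brain slice 4 mm thick, and the labels call the 4 samples of a group biological replicates. Each array was hybridised with the RNA of 1 rat labelled with Cy5 (red) and with a pool of sham cortex, labelled with Cy3 (green). Sham and tMCAO rats were therefore both read against sham RNA. No allele, transgene or drug is named in the labels, and no age or sex was used here. In bulk RNA, fewer cells of a type and less RNA per cell cannot be told apart.

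Chemokines are small secreted proteins that guide the movement of leukocytes, and the CC class is named for adjacent cysteines near the N terminus. A CC chemokine binds a G protein-coupled receptor of the Ccr family on the moving cell, and many ligands share receptors. Ccl2 and Ccl7 attract monocytes through Ccr2, Ccl3 and Ccl5 act on Ccr1 among other receptors, Ccl4 attracts macrophages and T cells, and Ccl20 is the chemokine ligand of Ccr6, a receptor of some T and B cells. Ccl6 is found in rodents, and in mouse it acts on Ccr1. In injured brain, CC chemokines are made by microglia, astrocytes, endothelial cells and by leukocytes that have entered the tissue, and several of their genes are turned on by NF-kappaB, a transcription factor of the inflammatory response.

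Across the table the arrays were comparable in brightness, with a median normalized intensity of 0.22 to 0.24 in every channel. The log2 ratio of Cy5 to Cy3 had an SD over probes of 0.23 to 0.26 in the sham group. In the tMCAO group it was 0.74, 0.69, 0.62 and 0.37 for replicates 1 to 4, so replicate 4 lay closest to the sham arrays. Neuronal markers were measured in all rats of the labelled cortex: the summed Cy5 intensity of 5 marker genes was 23 to 25.3 in sham and 9.58 to 17.3 in tMCAO cortex. The precision of each comparison is limited by 4 arrays per group.

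Of the 7 genes, 5 rose after tMCAO and 2 fell, at an adjusted p under 0.05 in the limma fit over all 17929 genes and unnamed probes. Among all of those features 15% were called higher and 16% lower. Ccl7, Ccl2, Ccl20 and Ccl6 rose between 5.21-fold and 7.19-fold and Ccl5 rose 2.36-fold, while Ccl3 was 2.34-fold lower and Ccl4 1.95-fold lower. The median log2 difference was 2.38 over the 7 genes and -0.05 over all features. All 4 tMCAO arrays lay above all 4 sham arrays for the 5 genes that rose, and below them for Ccl3; Ccl4 overlapped. Of all features, 13.8% had tMCAO wholly above sham and 16.2% had it wholly below. Fitted probe by probe, 7 of the 9 probes were called higher, against 14.5% of all 23376 probes, and 2 were called lower, against 15.1%. Of the probes called higher, 3 were made for the same Ccl2 transcript sequence, so they are not separate genes. The 7 genes were chosen with earlier results of these data known, so these shares are a description and no test.

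**Figure D1:**
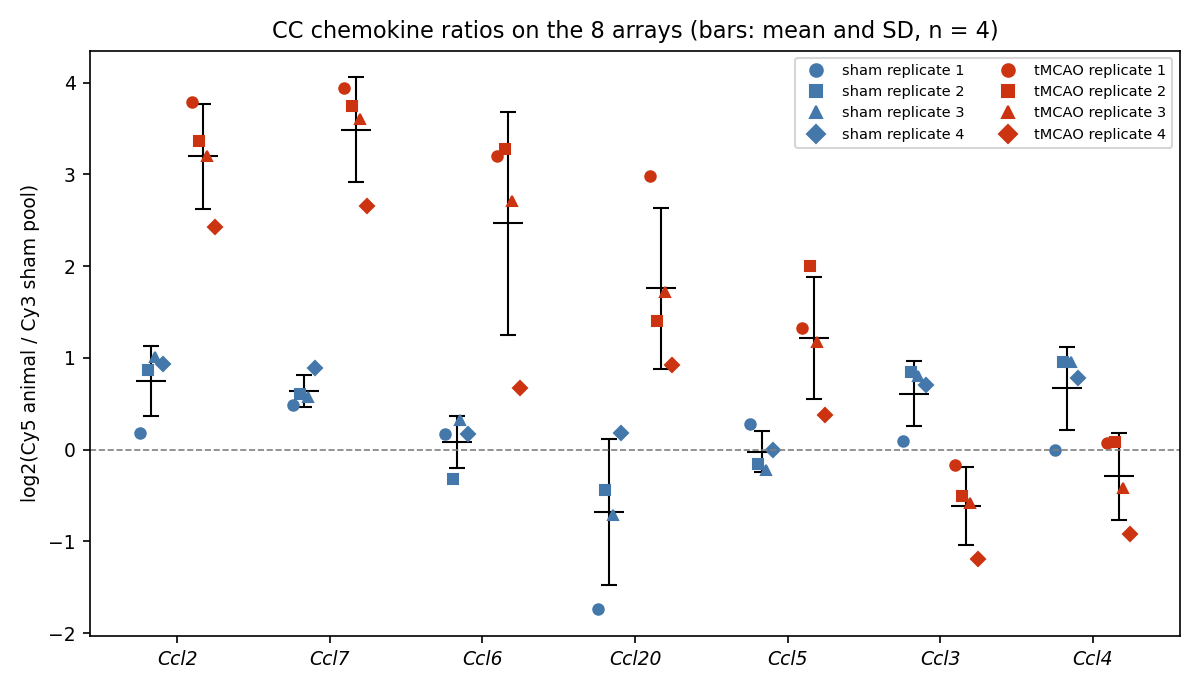
The log2 ratio of Cy5 (1 rat) to Cy3 (sham pool) on the vertical axis is shown for each CC chemokine on the horizontal axis, with 1 point per array and bars for the mean and SD of 4 arrays. The tMCAO points (red) lie above the sham points (blue) for Ccl2, Ccl7, Ccl6, Ccl20 and Ccl5 and below them for Ccl3, Ccl4 overlaps, and tMCAO replicate 4 (diamond) is the lowest tMCAO point of all 7 genes.

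Ccl2 and Ccl7, the monocyte attractants, were already readable in sham cortex and became bright after tMCAO. The Ccl7 probe had Cy5 intensities of 0.66, 0.79, 0.73 and 0.93 in sham replicates 1 to 4 and of 11.7, 9.28, 7.05 and 3.84 in tMCAO replicates 1 to 4. Every tMCAO signal was well above every sham signal, and replicate 4 was the lowest of the tMCAO rats. Its log2 ratio to the pool was 0.64 ± 0.18 (SD, n = 4) in sham and 3.49 ± 0.57 (SD, n = 4) in tMCAO cortex, a difference of 2.85 ± 0.26 (SE) with an adjusted p of 0.00171 in limma.

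Ccl2 was measured by 3 probes made for the same transcript sequence, which differed in brightness. The brightest probe had Cy5 intensities of 3.33, 5.39, 6.17 and 5.65 in sham and of 22.4, 28.1, 25.3 and 15.8 in tMCAO replicates 1 to 4. Signals of the tMCAO replicates 1 to 3 on that probe were at the ceiling where bright intensities of their array pile up. The dimmest probe read 0.31, 0.47, 0.57 and 0.6 in sham and 7.49, 3.74, 3.63 and 2.05 in tMCAO, and the middle one read 0.82, 1.37, 1.32 and 1.41 in sham and 14.9, 9.04, 7.06 and 4.49 in tMCAO. On each of the 3 probes the groups were far apart, sham replicate 1 was the lowest sham array and tMCAO replicate 4 the lowest tMCAO array. The log2 differences were 2.19, 2.56 and 2.59 for the brightest, dimmest and middle probe, with probe-wise adjusted p of 0.00169, 0.00362 and 0.0032. The 3 log2 ratios spanned 1.22 on tMCAO replicate 1, where the brightest probe was at its ceiling and lowest, and at most 0.3 on the other 7 arrays.

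Averaged over its probes, Ccl2 had log2 ratios of 0.19, 0.87, 1.01 and 0.93 in sham and of 3.79, 3.37, 3.20 and 2.43 in tMCAO. The difference was 2.45 ± 0.29 (SE), or 5.45-fold, with a limma adjusted p of 0.00253, and it was 2.57 without the probe at the ceiling. Against the pool alone it was 3.20. Forcing the same distribution of ratios on every array by quantile normalization brought the Ccl2 difference to 0.86 with an adjusted p of 0.0857, so the call ended there. The Ccl7 difference was 1.25 under the same setting, with an adjusted p of 0.00368.

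**Figure D2:**
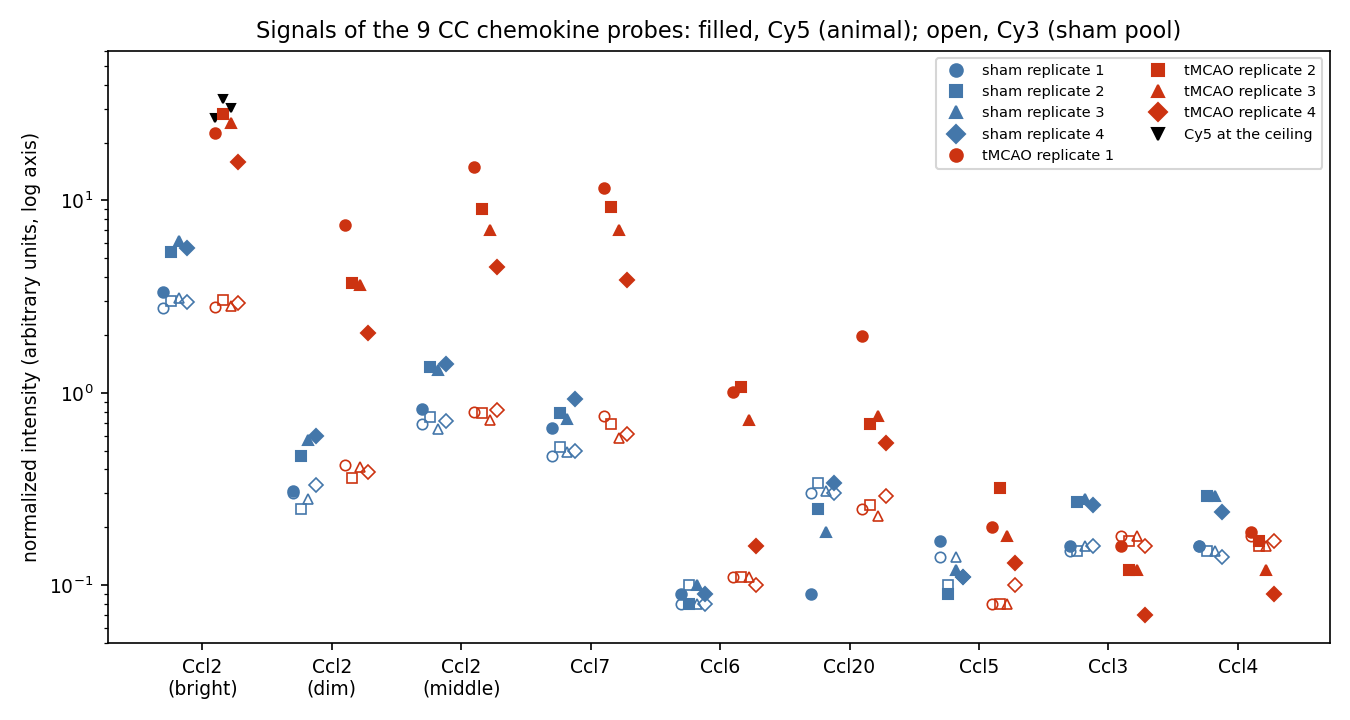
Normalized intensities (arbitrary units, log axis) of the 9 probes are plotted for each array, with filled symbols for the rat (Cy5) and open symbols for the sham pool (Cy3); black triangles mark Cy5 signals at the ceiling. The tMCAO signals of Ccl7 run from 3.84 to 11.7 and those of sham from 0.66 to 0.93, while the Ccl3 and Ccl4 signals all lie between 0.07 and 0.29.

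Ccl6 signals were near the lower end of the scale in sham cortex and clearly higher in 3 of the 4 tMCAO rats. Its Cy5 intensity was 0.09, 0.08, 0.1 and 0.09 in sham replicates 1 to 4 and 1.01, 1.07, 0.72 and 0.16 in tMCAO replicates 1 to 4. The sham signals equalled those of the pool (0.08 to 0.1 on the same arrays) to within 0.02, and tMCAO replicate 4 stood near the sham level and the other 3 far above it. The log2 ratios were 0.17, -0.32, 0.32 and 0.17 in sham and 3.20, 3.28, 2.71 and 0.68 in tMCAO. The difference was 2.38 ± 0.53 (SE), or 5.21-fold, with a limma adjusted p of 0.0125. Because intensities are listed to 2 decimals, rounding alone allows folds from 4.38 to 6.21. Without tMCAO replicate 4 the difference was 2.98, or 7.88-fold, with an adjusted p of 3.68e-05. Under quantile normalization the rise was 2.83-fold, with an adjusted p of 0.0185.

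Ccl20, the Ccr6 ligand, was below the pool in 3 of 4 sham rats and above it in all tMCAO rats. Its Cy5 intensity was 0.09, 0.25, 0.19 and 0.34 in sham and 1.97, 0.69, 0.76 and 0.55 in tMCAO replicates 1 to 4. Both groups were uneven, with sham replicate 1 far below the other sham rats and tMCAO replicate 1 far above the other tMCAO rats, but they did not overlap. The log2 ratios were -1.74, -0.44, -0.71 and 0.18 in sham and 2.98, 1.41, 1.72 and 0.92 in tMCAO, a difference of 2.44 ± 0.50 (SE), or 5.41-fold, with a limma adjusted p of 0.0098. Read against the pool alone, the tMCAO mean was 1.76.

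Ccl5, a ligand made by T cells and other leukocytes, had the smallest difference of the 5 genes that rose. Its Cy5 intensity was 0.17, 0.09, 0.12 and 0.11 in sham and 0.2, 0.32, 0.18 and 0.13 in tMCAO replicates 1 to 4, so the Cy5 signals of the groups overlapped. The pool, although it is one RNA, read 0.1 to 0.14 beside sham rats and 0.08 to 0.1 beside tMCAO rats, and the ratios did not overlap. They were 0.28, -0.15, -0.22 and 0 in sham and 1.32, 2, 1.17 and 0.38 in tMCAO on the log2 scale, and within rounding the lowest tMCAO and highest sham ratios could change order. The difference was 1.24 ± 0.30 (SE), or 2.36-fold (2.00 to 2.81 within rounding), with a limma adjusted p of 0.0168. It lost its call on the Cy5 signal alone, at 0.72 with an adjusted p of 0.0782, and without sham replicate 3, at 1.17 with an adjusted p of 0.0529.

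The pool signal also moved with the group for other genes. For Ccl7 it was 0.47 to 0.52 beside sham and 0.58 to 0.76 beside tMCAO rats, and for Ccl20 it was 0.3 to 0.34 and 0.23 to 0.29. On the dimmest Ccl2 probe it was 0.25 to 0.33 and 0.36 to 0.42, while on the brightest and middle Ccl2 probes the ranges overlapped. For Ccl6 (0.08 to 0.1 and 0.1 to 0.11), Ccl3 (0.15 to 0.16 and 0.16 to 0.18) and Ccl4 (0.14 to 0.16 and 0.16 to 0.18) the ranges touched. On the Cy5 signal alone the differences of Ccl7 and Ccl20 were 3.25 and 2.15, and both kept their calls. Group and any array batch behind these pool signals cannot be told apart.

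Ccl3 and Ccl4, the macrophage inflammatory proteins, fell. The Ccl3 Cy5 intensity was 0.16, 0.27, 0.28 and 0.26 in sham and 0.16, 0.12, 0.12 and 0.07 in tMCAO replicates 1 to 4. Sham replicate 1 equalled the highest tMCAO signal, and the other 3 sham rats were clearly higher. The pool read 0.15 to 0.16 and 0.16 to 0.18, so the ratios separated: on the log2 scale they were 0.09, 0.85, 0.81 and 0.70 in sham and -0.17, -0.50, -0.58 and -1.19 in tMCAO. The Ccl3 difference was -1.22 ± 0.24 (SE), a 2.34-fold lower level (2.06 to 2.66 within rounding), with a limma adjusted p of 0.00842. Read against the pool alone it was -0.61, since the sham rats themselves lay above the pool.

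Ccl4 had a smaller difference than Ccl3, and its groups overlapped. Its Cy5 intensity was 0.16, 0.29, 0.29 and 0.24 in sham and 0.19, 0.17, 0.12 and 0.09 in tMCAO replicates 1 to 4. The log2 ratios were 0, 0.95, 0.95 and 0.78 in sham and 0.08, 0.09, -0.42 and -0.92 in tMCAO, so sham replicate 1 lay below tMCAO replicates 1 and 2. The difference was -0.96 ± 0.28 (SE), a 1.95-fold lower level (1.72 to 2.20 within rounding), with a limma adjusted p of 0.0336. The call was lost without sham replicate 2 (-0.87, adjusted p 0.0889), sham replicate 3 (-0.87, 0.0929), sham replicate 4 (-0.93, 0.0823) or tMCAO replicate 3 (-0.92, 0.0838). With the pool as the only control the difference was -0.29 with an adjusted p of 0.26.

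**Figure D3:**
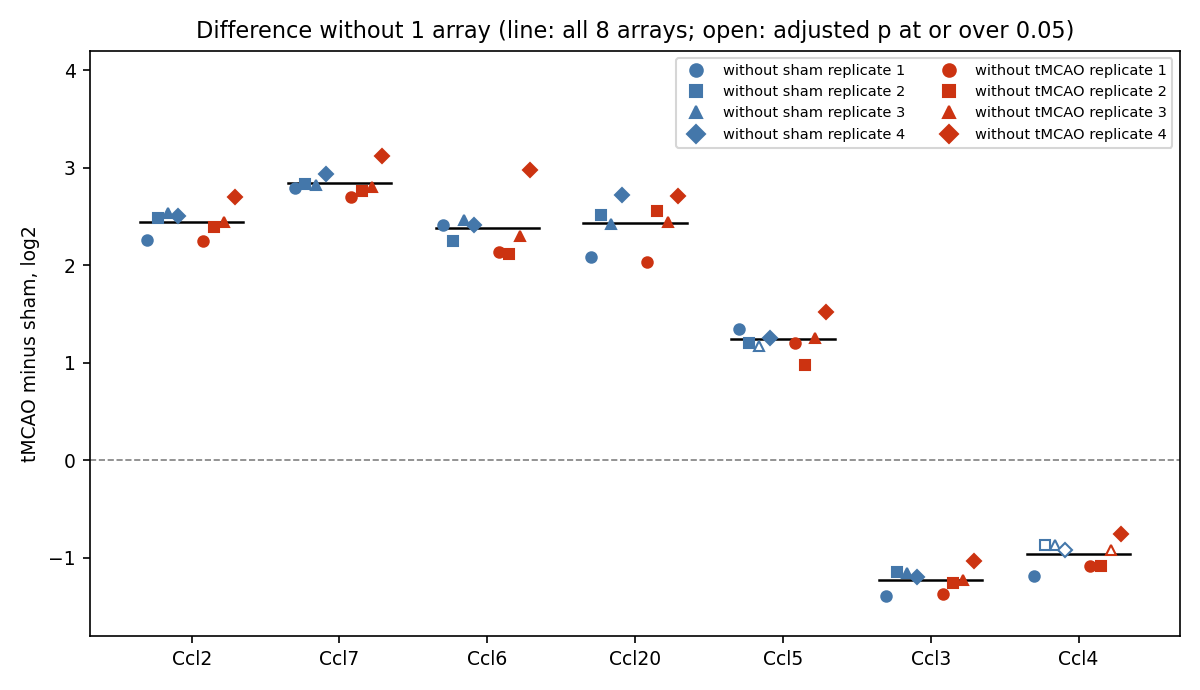
The tMCAO minus sham difference (log2, vertical axis) of each gene is shown with all 8 arrays (line) and with 1 array left out (points); an open point has an adjusted p of 0.05 or more. All points keep the sign of the line, and open points occur for Ccl5 (1 of 8) and Ccl4 (4 of 8).

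Sham rats were also compared with the pool, which was sham cortex too. The mean sham log2 ratio was 0.75 for Ccl2, 0.64 for Ccl7, 0.67 for Ccl4 and 0.61 for Ccl3, -0.68 for Ccl20, 0.08 for Ccl6 and -0.02 for Ccl5. In limma 0 of the 7 genes were called between sham and pool, with adjusted p from 0.338 to 1. At an unadjusted p under 0.05, 4 of the 7 (Ccl2, Ccl7, Ccl3 and Ccl4) lay above the pool. The error in this fit is shared by both groups, so these p-values do not measure the sham spread alone. For each of the 7 genes the tMCAO SD was larger than the sham SD. For Ccl7 the SDs were 0.57 and 0.18, and the SE used was 0.18. Of all features 0.0335% were called above the pool and 0.0167% below it, and at an unadjusted p under 0.05 these shares were 4.62% and 3.25%. The authors' deposited table gives a p-value for each probe and array, which compares the channels of that array and holds no spread between rats. In that table all 4 sham arrays were above the pool at p under 0.01 for Ccl7. For every Ccl2 probe, for Ccl3 and for Ccl4, 3 of 4 were. The share of all probes that passed was not counted. Without a dye swap, a dye effect does not cancel in this comparison. For Ccl20 the authors' deposited table had 2 of 4 sham arrays below the pool at that threshold, and for Ccl6 and Ccl5 it had 0 in either direction. In the authors' deposited table sham replicate 1 had p-values of 0.13, 0.74 and 0.15 for the brightest, dimmest and middle Ccl2 probe, of 0.45 for Ccl3 and of 0.97 for Ccl4.

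Single rats stood at the edge of their group for several genes. The lowest tMCAO ratio of all 7 genes was that of replicate 4, so this rat was nearest to sham for the genes that rose and farthest from sham for Ccl3 and Ccl4. Sham replicate 1 had the lowest sham ratio of 5 genes (Ccl2, Ccl7, Ccl20, Ccl3 and Ccl4) and the highest of Ccl5. The tMCAO replicate 1 had the highest tMCAO ratio of 4 genes (Ccl2, Ccl7, Ccl20 and Ccl3).

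Likeness of pattern was measured as the root mean square difference of log2 ratios over the 8 arrays, a description without a test. The named genes closest to Ccl2 were Bcl2a1 (0.287), Ccdc85b (0.299) and Ccl7 (0.303), and those closest to Ccl7 were Ccl2, Bcl2a1 (0.333) and Ccdc85b (0.403). Ccl3 and Ccl4 were each other's closest gene at 0.265, followed by Dusp1 and Dio2 for Ccl3 and by Glra3 and Fgf17 for Ccl4. Pdlim1, Il20rb and Arpc1b came closest to Ccl6, between 0.229 and 0.34. Scarf1, Pecam1 and Egfl7 came closest to Ccl5, between 0.197 and 0.205. The genes closest to Ccl20, namely Ada, Mmp9 and Slc38a5, were 0.576 to 0.598 away.

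In the order of RefSeq genes on the GRCr8 rat assembly, Ccl2 and Ccl7 are direct neighbours on chromosome 10, and both rose. Further along the same chromosome stand Ccl5, Ccl9, Ccl6, Ccl3 and Ccl4 in that order, and there Ccl6, which rose 5.21-fold, lies next to Ccl3, which fell. Ccl9, between Ccl5 and Ccl6, had a difference of 0.41 with a limma adjusted p of 0.245. Ccl20 lies on chromosome 9.

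A RefSeq promoter window was found in the sources used here for Ccl7, Ccl6 and Ccl20, and for none of Ccl2, Ccl5, Ccl3 and Ccl4. Availability alone chose the genes, and no gene that fell is among them. The 3 windows are printed so that their start regions can be compared. Each covers 250 bases before to 50 after the annotated start on GRCr8, 5′ to 3′ on the gene's strand, and capitals mark the matches of 4 motifs searched on both strands: the NF-kappaB consensus, TGANTCA (AP-1), TATAAA (the TATA box) and TTGCNNNAA (C/EBP type).
Ccl7, chr10:67513845-67514144 (plus strand): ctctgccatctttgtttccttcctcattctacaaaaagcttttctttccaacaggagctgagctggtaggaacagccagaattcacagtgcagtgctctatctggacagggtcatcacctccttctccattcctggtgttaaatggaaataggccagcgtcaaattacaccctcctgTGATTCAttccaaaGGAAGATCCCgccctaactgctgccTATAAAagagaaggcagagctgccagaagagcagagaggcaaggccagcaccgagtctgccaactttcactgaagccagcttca
Ccl6, chr10:68883317-68883616 (minus strand): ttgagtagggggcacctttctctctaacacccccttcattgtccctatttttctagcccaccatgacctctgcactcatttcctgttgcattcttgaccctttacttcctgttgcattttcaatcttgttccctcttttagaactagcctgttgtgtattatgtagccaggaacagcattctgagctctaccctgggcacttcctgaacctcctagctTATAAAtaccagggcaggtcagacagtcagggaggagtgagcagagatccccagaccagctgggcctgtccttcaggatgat
Ccl20, chr9:91836909-91837208 (plus strand): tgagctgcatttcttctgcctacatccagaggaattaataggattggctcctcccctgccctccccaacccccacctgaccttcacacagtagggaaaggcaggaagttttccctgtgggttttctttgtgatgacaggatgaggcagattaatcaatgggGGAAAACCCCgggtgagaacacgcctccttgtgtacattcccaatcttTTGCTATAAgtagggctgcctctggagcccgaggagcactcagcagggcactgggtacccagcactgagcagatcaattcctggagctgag
Counted from the annotated start at 0, the Ccl7 window holds an AP-1 match from -73, an NF-kappaB match on the opposite strand from -59 and a TATAAA from -34. The Ccl20 window holds an NF-kappaB match on the opposite strand from -89 and a C/EBP type match from -41. The Ccl6 window holds a TATAAA from -32 and no match to the other 3 motifs. None of the matches overlap. Of 33469 rat promoter windows of the same length, 7.51% hold the NF-kappaB consensus, 7.33% TGANTCA, 14.2% TATAAA and 9.60% TTGCNNNAA. A match is a run of letters, and binding was not measured.

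Among the other CC chemokines, 8 of 13 listed genes were measured, of which 2 rose and 2 fell, with a median log2 difference of 0.33. Ccl19, a ligand of the lymphocyte and dendritic cell receptor Ccr7, read 0.31, 0.37, 0.32 and 0.37 in sham and 1.33, 1.42, 0.82 and 0.78 in tMCAO cortex (Cy5 intensity), and rose by 1.33 ± 0.20 (SE) on the log2 scale, adjusted p 0.00404. Its groups were far apart. Ccl22, a Ccr4 ligand, was called at 0.95 (adjusted p 0.0305), but all its Cy5 signals were between 0.01 and 0.03, which is 1 to 3 steps of the rounding.

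Ccl27, a chemokine of skin that is also made in brain, read 1.69, 2.22, 1.94 and 1.96 in sham and 0.85, 1.34, 1.46 and 1.33 in tMCAO, so its groups did not overlap either. It fell by 0.91 on the log2 scale (adjusted p 0.00928), and Ccl21, another Ccr7 ligand, fell by 0.49 (adjusted p 0.0081). The Ccl21 signals were low, with Cy5 intensities of 0.16 to 0.21 in sham and 0.1 to 0.14 in tMCAO. The deposited symbol of the Ccl21 probe is Ccl21b. Ccl11, an eosinophil attractant, had a difference of 1.15 with an SE of 0.53 and was not called (adjusted p 0.131), and Ccl9, Ccl17 and Ccl28 were not called.

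Of the CC receptors, 6 of 10 listed genes were measured and 1, Ccr1, was called, with a median log2 difference of 0.09. Ccr1, the receptor of Ccl3, Ccl5, Ccl7 and, in mouse, Ccl6, read 0.06, 0.06, 0.06 and 0.05 in sham and 0.28, 0.13, 0.17 and 0.11 in tMCAO. Its log2 difference was 1.44 ± 0.34 (SE), or 2.71-fold, with a limma adjusted p of 0.0147. These signals are low, and all tMCAO values were above all sham values.

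Ccr2, the receptor of Ccl2 and Ccl7, read 0.16 to 0.25 in sham and 0.09 to 0.19 in tMCAO, and the pool on the same arrays read 0.08 to 0.25. Its log2 difference was -0.01 ± 0.09 (SE), adjusted p 0.942. Ccr4 had a difference of -0.32 (adjusted p 0.051), and Ccr3 and Ccr9 lay at 0.06 or below on every array and were not called. The receptor of Ccl20 (Ccr6), and Ccr7, Ccr8 and Ccr10, were not analysed here.

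Of the atypical receptors, which bind chemokines without G protein signalling, 2 were measured. Ackr3, a scavenger of CXC chemokines, rose by 0.64 ± 0.13 (SE), or 1.56-fold, with an adjusted p of 0.00992, from Cy5 intensities of 0.56 to 0.73 in sham to 0.94 to 1.2 in tMCAO. Ackr2, a scavenger of inflammatory CC chemokines, differed by -0.15 with an adjusted p of 0.483. Its Cy5 intensities did not overlap, at 0.74 to 1.7 in sham and 0.37 to 0.63 in tMCAO. The pool read 0.4 to 1.41 on the same arrays, and the ratios overlapped.

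**Figure D4:**
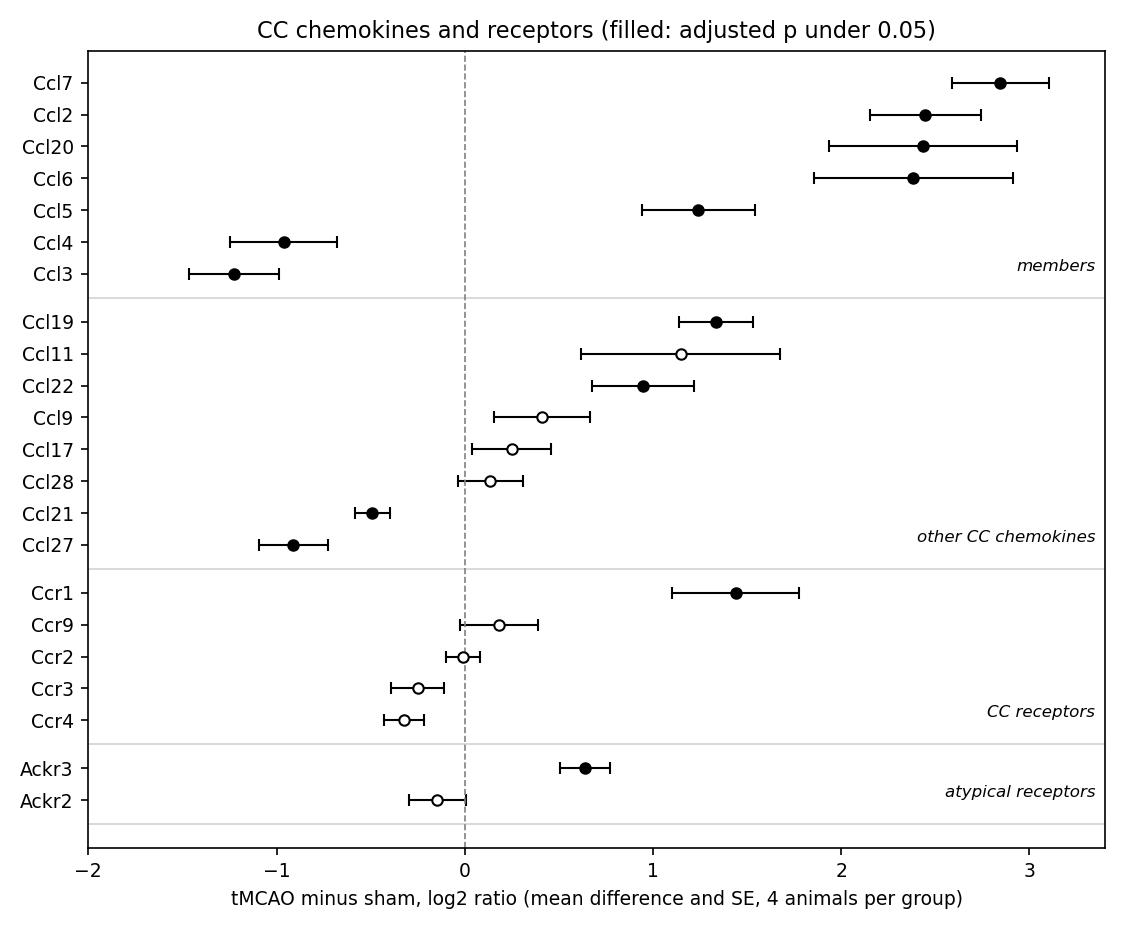
The tMCAO minus sham difference of log2 ratios with its SE is plotted for the CC chemokines and receptors named in the text, and filled circles have an adjusted p under 0.05. Ccl7 (2.85) is the highest and Ccl3 (-1.22) the lowest ligand, while Ccr1 (1.44) is the one filled circle among the CC receptors shown.

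Of 23 measured genes that carry the signal of chemokine receptors, 9 rose and 3 fell, with a median of 0.17. Over all features 15% were called higher and 16% lower, and the median was -0.05. Among the signalling genes that rose were Vav1, an exchange factor of blood cells, Rac2, a GTPase of blood cells, and Fgr, a Src-type kinase of myeloid cells. Vav1 rose 4.09-fold, Rac2 2.31-fold and Fgr 2.24-fold, with limma adjusted p of 0.00295, 0.00171 and 0.00598. Ptk2b, a calcium-activated kinase abundant in forebrain neurons, was 2.04-fold lower. Rgs2, a brake on G protein signalling, was 1.71-fold lower and Gnai1, an inhibitory G protein subunit, 1.56-fold lower. Other genes of these families went the other way. Rgs1 rose 1.88-fold (limma adjusted p 0.0112) and Gnai3 rose 1.68-fold (limma adjusted p 0.00426).

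Among 26 measured genes that act upstream of CC chemokines, 10 rose and none fell, with a median of 0.34. Cd14, a co-receptor for microbial and damage signals, rose 3.17-fold (adjusted p 0.00171), and Tnfrsf1a, a receptor of TNF, rose 2.09-fold (0.00356). The cytokine genes Il6 and Il1b rose 2.94-fold (0.0322) and 2.63-fold (0.0231), but their groups overlapped. In tMCAO replicate 4 their log2 ratios were 0.47 and 0.55, below sham replicate 3 at 0.85 and 0.70. Tnf differed by -0.14 (adjusted p 0.267) and Il1a by -0.70 (0.0593), and neither was called.

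Some markers of cells that make or follow CC chemokines moved beside them, and their part in the results above was not tested. Over all features 15% were called higher and 16% lower. Of 8 measured monocyte and macrophage markers 6 rose, with a median of 1.62, among them Lyz2 (4.33-fold), Arg1 (3.96-fold), Cd14 and Fn1 (3.12-fold). Their summed Cy5 intensity was 6.82 to 10.1 in sham and 18.4 to 39.6 in tMCAO cortex, lowest in tMCAO replicate 4. Of 8 microglia markers 4 rose (median 0.63), Itgam 2.63-fold and Cx3cr1 2.43-fold, with sums of 13.3 to 14 and 16.3 to 26.4. P2ry12 and Tmem119, which mark resident microglia, differed by -0.07 and -0.06 and were not called. Over both channels P2ry12 and Itgam were dim, with mean log2 intensities of -4.65 and -3.68, so their ratios are coarse. Tmem119 was brighter, at 0.28.

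Of 12 T and NK cell markers 4 rose (median 0.4), Cd2 1.86-fold and Cd8a 1.68-fold, with sums of 1.49 to 1.73 and 1.55 to 2.19. Cd8a was dim, with a mean log2 intensity of -4.30 over both channels, so its ratios are coarse. Its groups overlapped, with a log2 ratio of 0.26 in sham replicate 3 and in tMCAO replicate 4. Of 7 neutrophil markers 1 rose, Mmp9, a protease that other cells make too (4.07-fold). This count is near the share of all features called higher (15%). S100a8 and S100a9 had differences of 1.60 and 1.80 with SEs of 0.86 and 0.89 and were not called, and the sums were 0.932 to 2.37 in sham and 2.28 to 8.94 in tMCAO. In each of these 4 lists tMCAO replicate 4 had the lowest sum of its group, and no marker probe was listed at 0.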

How the data were processed

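Cortex RNA of 8 rats was measured on dual-colour Agilent arrays without a dye swap. Per the labels' protocols, 100 ng of RNA was amplified in 2 rounds; per the submitters' processing notes, Agilent Feature Extraction 8.5.1.1 was used. The authors deposited, for each array, a normalized intensity of both channels, on a linear scale that is mostly rounded to 2 decimals, and a p-value comparing the channels. Their calculation is not given in sources used here. A deposited series table holds the log10 ratio, which differed from the ratio of intensities by at most 0.00498.

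The log2 ratio of Cy5 to Cy3 was computed for the 23376 of 23609 probes with a value on every array, without further normalization, since the array medians were close to each other. The 233 probes left out include none of the 9 described. Symbols were updated with RefSeq names, and averaging the probes of each symbol left 17929 features. A mean per group was fitted to each (limma 3.58.1, R 4.3.3; lmFit, eBayes, 2-sided), with Benjamini-Hochberg adjustment over all features and a call at an adjusted p under 0.05; in the text, an adjusted p comes from this fit unless another setting is named. The sham mean against 0 in the same fit compares sham with the pool. A dye effect equal on all arrays cancels in tMCAO minus sham, but not in sham against pool. Intensities pile up at a ceiling in 10 of 16 channels, the lowest at 19.2. Ranges within rounding move each intensity by up to 0.005. The fit was tested on simulated data.

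The named genes are the members, the measured receptors and the 3 nearest symbols of each member. From each list they include up to 4 called genes by size of difference, or up to 2 by signal where none is called. Genes named outside that rule were picked after their values were seen. These are Ptk2b, Rgs1, Rgs2, Gnai1, Gnai3, Tnf, Il1a, P2ry12, Tmem119, S100a8, S100a9 and the other CC chemokines. Members and lists were chosen with earlier results of these data known. Same-numbered sham and tMCAO arrays did not deviate together (correlations from -0.05 to 0.04), so numbers were not treated as pairs. Slide and scan batches were not analysed here, and 3 genes of the lists are counted but not reported here by name.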

Additional observations from a re-analysis of the deposited data

Results flagged for a closer look

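In sham replicate 1 the Ccl2 log2 ratio to the pool was 0.187, far from the other 3 sham rats, which lay between 0.872 and 1.01. The dimmest of the 3 Ccl2 probes gave 0.0473 on that array against 0.862 to 1.03 on the other sham arrays. In both cases the gap to the nearest rat filled 0.833 of the range of the 4 values. The gene value contains the probe value, so these are not separate observations. They came from 30 tests on groups of 4, and chance flags about 1 in 20 groups. Without sham replicate 1 the tMCAO minus sham difference of Ccl2 was 2.26, against 2.45 with all arrays.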

How the results depend on the processing

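No direction of a member's tMCAO minus sham difference reversed under any of the 21 alternatives, and Ccl7, Ccl6, Ccl20 and Ccl3 kept their call in all of them. Some of the 21 could not move a member's difference. Median centring and keeping probes with missing values returned the same differences. So did leaving out the features with the lowest signal, the intensity trend with robust variances and the replicate block. In these settings at most the adjusted p changed. Taking the brightest probe or leaving out probes at the ceiling could change only the difference of Ccl2. The deposited log10 ratios are nearly the same values. Leaving out 1 array at a time gave 2.25 to 2.70 for Ccl2, 2.69 to 3.12 for Ccl7, 2.11 to 2.98 for Ccl6, 2.03 to 2.72 for Ccl20, 0.98 to 1.52 for Ccl5, -1.40 to -1.03 for Ccl3 and -1.19 to -0.75 for Ccl4. Members called higher numbered 4 to 5 and lower 1 to 2. Over all features 1811 to 3907 were called higher and 1701 to 4318 lower, the most without tMCAO replicate 4. The list counts ran from 1 to 2 for CC receptors, 3 to 5 for other CC chemokines, 9 to 17 for receptor signalling and 4 to 16 for upstream signals. The sham against pool value of Ccl5 was -0.12 to 0.0427, with its sign turned without sham replicate 2 (0.0192) or 3 (0.0427), and Ccl7, at 0.56 to 0.69, was called above the pool without tMCAO replicate 4 (0.64, adjusted p 0.0328).

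Quantile normalization gave 0.86 for Ccl2 (call lost), 1528 features higher and 1379 lower, and called 2 CC receptors, 0 atypical receptors (main 1), 6 signalling genes (main 12) and 4 upstream genes (main 10). The Cy5 signal alone gave 0.72 for Ccl5 (call lost) and called 2 atypical receptors, Ackr2 and Ackr3. With the pool as the control, values were 3.20 for Ccl2, 3.49 for Ccl7, and -0.29 for Ccl4, which lost its call and left 1 member lower; 4056 features were higher and 4724 lower, and 2 CC receptors, 19 signalling and 20 upstream genes were called. Array weights gave 4062 higher and 4638 lower. The CC receptors called were 0 without the 25% of features with the lowest signal, where Ccr1 is not tested, and 2 with an intensity trend and robust variances. At an adjusted p under 0.01, 5 member probes were called higher, all 3 Ccl2 probes among them, and 1 lower. The share of all probes at that threshold was not counted. The replicate block, with no pairing behind the numbers, left the Ccl4 difference at -0.96 but ended its call (adjusted p 0.0677), leaving 1 member lower. The cause of these moves was not tested. Signals near 0.1, as for Ccl5, Ccl3, Ccl4, Ccl6 in sham and all Ccr genes, are coarse because of the rounding, and 27.9% of Cy5 intensities lay below 0.1.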

Other observations

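Of 7 endothelial markers 4 rose (median 1.12), Kdr by 3.45-fold, and their summed Cy5 intensity was 7.17 to 8.24 in sham and 11.2 to 32.7 in tMCAO cortex. Of 8 meningeal fibroblast markers 5 rose (median 0.75), Dcn, a matrix proteoglycan, by 4.15-fold. Gfap, the filament of reactive astrocytes, rose 2.68-fold, while Aldh1l1 and Slc1a2 fell among the 6 astrocyte markers (median -0.38).

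All 5 neuronal markers fell (median -1.11), Uchl1 by 1.46 on the log2 scale. Of 8 markers that are high in striatum 6 fell (median -1.01), Rgs9 2.65-fold; over this list the log2 ratios had a median of -0.57 to -0.39 on the sham arrays, below the pool, and -1.63 to -1.06 on the tMCAO arrays. Among 4 red cell genes Hba-a2 and Alas2 had differences of 0.43 and 0.27 with limma adjusted p of 0.299 and 0.452, and no gene of this list was called.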
